A study of Mus musculus with 6 samples.

Results

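Switch-region junctions from B cells homozygous for the ATM RX allele (ATM RX/RX) were compared with those from wild-type B cells, by region, orientation, position and junction structure together. The comparison holds 4 of the 6 libraries of the series, chosen by their titles: 2 of ATM RX/RX and 2 of wild type. The other 2 libraries, from ATM knockout (ATM KO) cells, entered only the fits, where they helped to estimate the spread between libraries. High-throughput genome-wide translocation sequencing (HTGTS) reads the DNA that becomes joined to 1 fixed break region, the bait, which here was the switch region Sμ of the immunoglobulin heavy chain locus (IgH).

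Class switching replaces the Cμ constant region with a downstream one by joining a break in Sμ to a break in another switch region. Sγ1 precedes the constant gene of IgG1 and Sε that of IgE. ATM is the kinase that signals such breaks, and the FATC domain, which the RX allele lacks, closes the protein at its end. Broken ends may be joined bluntly, with added bases (an insertion), or through bases that both ends share (microhomology). Classical end joining gives mostly blunt joints or short microhomology, and alternative end joining uses microhomology more often.

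In all groups, splenic B cells without CD43 were taken from mice of the 129 strain, and per the design text all animals carried a preassembled IgH allele of 129 origin. Culture lasted 4 days in the presence of IL-4 at 20 ng/mL and anti-CD40 at 1 ng/mL, a pair of stimuli that induces switching to IgG1 and IgE. The labels used here give no age, and none of them ties a library to an animal of its own, so the spread between libraries may be partly technical. The files hold DNA junctions and no expression, so neither the Atm product nor B-cell markers could be examined. By the authors' counts the wild-type libraries held 904 and 507 junctions and the ATM RX/RX libraries 1233 and 701, of which 721, 391, 859 and 521 lay in IgH. Throughout, values of single libraries are given in the order replicate 1, replicate 2.

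All bait ends come from 1 stretch of Sμ, shown here because the place at which it was joined differed between the genotypes. Its consensus was the same in all 4 libraries and matched mm9 without a mismatch over 110 bases, at chr12:114664800-114664909 on the minus strand. Few reads reached the end of this stretch: in wild-type replicate 2, bases 104 to 110 rested on 1 read each. No gene of the GENCODE vM1 annotation overlaps it, and it lies 3859 bp upstream of Ighm, the gene of the Cμ constant region. Bases are counted from 1 at the 5′ end of the nested primer, which takes up the first 21. Capitals mark bases 75 to 84, where ATM RX/RX baits ended less often than wild-type baits did. The AflII site that the protocol uses to remove unrearranged product spans bases 104 to 109.
Bait, 5′ to 3′: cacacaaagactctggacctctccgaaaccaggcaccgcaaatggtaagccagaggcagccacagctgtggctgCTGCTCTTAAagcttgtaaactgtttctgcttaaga

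The kinds of joint compared are shown by the first read of each kind in list order, the blunt one from wild-type replicate 1 and the others from ATM RX/RX replicate 1, with bait on the left and the joined DNA (the prey) on the right. In the blunt joint, capitals mark the last bait base and the first prey base. In the next 2 reads they mark the microhomology, AGCT itself or a longer stretch that holds it, and in the last read the inserted bases. The prey ends lie on chromosome 12 at 114513409, 114568626, 114667611 and 114669393 of the authors' modified mm9 build, in the order shown.
Wild-type blunt joint to Sε, minus orientation: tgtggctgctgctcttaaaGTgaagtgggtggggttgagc
ATM RX/RX microhomology joint to Sγ1, minus orientation: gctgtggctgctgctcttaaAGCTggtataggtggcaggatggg
ATM RX/RX microhomology joint within Sμ, plus orientation: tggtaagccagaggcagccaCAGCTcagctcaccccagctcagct
ATM RX/RX joint within Sμ with an insertion, plus orientation: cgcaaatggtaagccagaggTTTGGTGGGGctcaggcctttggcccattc

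The first question was which regions the Sμ bait joined, and in which orientation. Minus-orientation joints include the deletions that complete switching, while plus-orientation joints are inversions or joints between chromosomes. ATM RX/RX cells had far fewer minus-orientation joints to Sε and more plus-orientation joints within Sμ. Minus-orientation Sε joints made up 41.7% and 27.9% of IgH junctions in wild type, and 2.91% and 8.25% in ATM RX/RX. The wild-type libraries lay far apart, and both ATM RX/RX libraries were below them. Plus-orientation Sμ joints made up 8.18% and 8.70% in wild type against 27.2% and 20.7%, with all ATM RX/RX values above all wild-type values.

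Of 10 classes tested against the library total, 2 passed the threshold of 0.05 on the adjusted p in edgeR, which is 20.0% of those tested, with 1 higher and 1 lower in ATM RX/RX (10.0% each). The minus-orientation Sε class had a log2 fold change of -2.83 ± 0.58 (SE, edgeR adjusted p = 0.0267). The plus-orientation Sμ class rose 2.61-fold (log2 1.38 ± 0.21 SE, edgeR adjusted p = 0.0136). Neither class passed when wild-type replicate 1 or ATM RX/RX replicate 1 was left out. The Sε class had an edgeR adjusted p of 0.052 when only the 4 libraries were fitted, and of 0.0516 without either ATM KO library. Scaled by TMM factors, a normalization on the classes themselves, the plus-orientation Sμ class had an edgeR adjusted p of 0.0776.

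The remaining IgH classes did not pass against the library total. The shares of a library add up to a whole, so a smaller minus-orientation Sε class makes every other share larger. That class held 301 and 109 junctions in wild type and 25 and 43 in ATM RX/RX. The limit holds for the IgH and the library total, and no total without that class was tested. Minus-orientation Sμ joints, which shorten the bait region itself, took 24.8% and 26.9% of IgH junctions in wild type and 35.9% and 34.0% in ATM RX/RX (edgeR adjusted p = 0.138 relative to the library total). Plus-orientation Sγ1 joints took 5.41% and 4.09% against 9.66% and 11.5% (edgeR adjusted p = 0.0811). In both classes the groups did not overlap, and by Fisher's exact test on the share of IgH junctions 3 of 4 pairs differed for minus-orientation Sμ (adjusted p from 3e-05 to 0.0568) and 4 of 4 for plus-orientation Sγ1 (adjusted p from 0.00046 to 0.0067). With the IgH total as offset 4 of the 8 IgH classes passed in edgeR: both called before, plus-orientation Sγ1 (2.18-fold higher, edgeR adjusted p = 0.043) and other plus-orientation IgH joints (2.96-fold higher, edgeR adjusted p = 0.043). Minus-orientation Sγ1 joints, the class of IgG1 switching, took 15.5% and 27.6% in wild type and 18.0% and 19.4% in ATM RX/RX, so that both mutant libraries lay between the wild-type ones (edgeR adjusted p = 0.392). This share depends on the same total, so it does not show that IgG1 switching was unchanged. In counts, minus-orientation Sγ1 held 112 and 108 joints against 155 and 101, and minus-orientation Sμ 179 and 105 against 308 and 177. Plus-orientation Sε joints were rare throughout, at 19 and 2 junctions in wild type and 10 and 4 in ATM RX/RX.

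Among minus-orientation joints to a downstream switch region, the balance between Sγ1 and Sε moved away from Sε. Of these joints Sε took 72.9% and 50.2% in the wild-type libraries, and 13.9% and 29.4% in the mutant ones. Group means stood at 61.6% ± 16.0 and 21.6% ± 10.9 (SD, n = 2 each). The 2 libraries of each group differed widely, and the difference of -39.9 percentage points exceeded the pooled SD of 13.7. The exact permutation p was 0.3333, the smallest that 2 against 2 libraries allow, and this holds for each comparison of group means described as without overlap. By Fisher's exact test, which compares single libraries and covers counting error only, 4 of 4 pairs differed (adjusted p from 1.1e-40 to 0.00067, over 172 such tests).

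With the mix of regions held at that of wild type, the share of plus-orientation joints over Sμ, Sγ1 and Sε was 17.6% and 12.5% in wild type and 35.2% and 25.3% in ATM RX/RX. The means were 15.0% ± 3.57 and 30.2% ± 7.02 (SD, n = 2 each), without overlap.

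**Figure D1:**
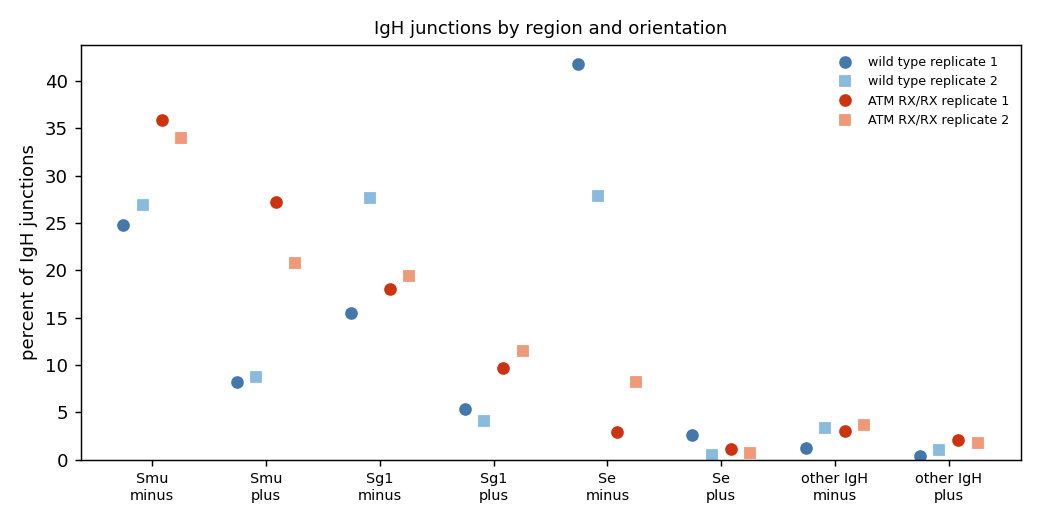
Percent of IgH junctions (vertical axis) in each region and orientation class (horizontal axis), 1 point per library. The shares of a library add up to a whole, so a smaller Sε share makes the others larger. The ATM RX/RX libraries stand at 2.91% and 8.25% for minus-orientation Sε against 41.7% and 27.9% in wild type, and above both wild-type libraries for both Sμ classes and for plus-orientation Sγ1.

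The second question was how the ends were joined in each of these classes. In ATM RX/RX more joints carried microhomology in every region and orientation with enough junctions to compare, and blunt joints were fewer in 4 of these 5 classes. Minus-orientation Sμ joints carried microhomology of 1 bp or more in 58.7% and 58.1% of cases in wild type and 75.2% and 75.6% in ATM RX/RX. Libraries of 1 genotype were within 1 percentage point of each other here. The means were 58.4% ± 0.399 and 75.4% ± 0.229 (SD, n = 2 each), and Fisher's exact test separated 4 of 4 library pairs (adjusted p from 0.00108 to 0.0108).

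The other classes had the same direction with fewer junctions. In plus-orientation Sμ the shares with microhomology were 55.9% and 55.9% in wild type and 67.7% and 68.2% in ATM RX/RX. In minus-orientation Sγ1 they were 61.6% and 69.4% against 77.4% and 73.3%, and in plus-orientation Sγ1 59.0% and 62.5% against 74.7% and 71.7%. In minus-orientation Sε they were 57.1% and 54.1% against 80.0% and 73.8%, the mutant values resting on 25 and 42 junctions. No class overlapped between the groups, and Fisher's exact test separated 0, 1, 0 and 0 of 4 library pairs in these 4 classes.

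With the mix of regions and orientations held at that of wild type, wild-type joints had microhomology in 58.2% ± 0.600 and ATM RX/RX joints in 75.3% ± 1.72 of cases (SD, n = 2 each). The difference was 17.1 percentage points, and it was 21.7 points when 2 bp or more were asked for and 20.7 points at 3 bp or more.

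Blunt joints, the counterpart of this shift, fell in both orientations of Sμ. They made up 26.8% and 23.8% of minus-orientation Sμ joints in wild type and 10.7% and 11.4% in ATM RX/RX. In plus-orientation Sμ they made up 25.4% and 20.6% against 9.05% and 9.35%. The groups did not overlap in either orientation, and Fisher's exact test separated 4 of 4 pairs in the minus (adjusted p from 8.4e-05 to 0.0207) and 2 of 4 in the plus orientation (adjusted p from 0.00636 to 0.212). In minus-orientation Sε, 78 of 301 and 28 of 109 wild-type joints were blunt, but only 1 of 25 and 1 of 42 in ATM RX/RX.

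Sγ1 behaved less clearly. Blunt joints made up 21.4% and 17.6% of minus-orientation Sγ1 joints in wild type and 10.3% and 12.9% in ATM RX/RX. In plus-orientation Sγ1 the groups overlapped, at 20.5% and 6.25% against 10.8% and 20.0%, the wild-type values resting on 39 and 16 junctions.

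Of 28 classes of region, orientation and structure, 8 passed in edgeR, which is 28.6% of those tested, with 4 lower and 4 higher in ATM RX/RX (14.3% each). Blunt joints fell in minus-orientation Sμ (log2 -1.22 ± 0.22 SE, edgeR adjusted p = 5.6e-05), in minus-orientation Sε (log2 -3.06 ± 0.58 SE, edgeR adjusted p = 0.00011) and in plus-orientation Sμ (log2 -1.36 ± 0.36 SE, edgeR adjusted p = 0.0072). These fits set a class against all junctions of its region and orientation. Set against its region in both orientations, the blunt plus-orientation Sμ class had a log2 change of -0.63 (edgeR adjusted p = 0.23), and with TMM factors one of 0.22 (edgeR adjusted p = 0.757). Microhomology of 1 bp fell in minus-orientation Sγ1, from 24.1% and 26.9% to 10.3% and 13.9% (edgeR adjusted p = 0.00397).

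Within their region and orientation, 4 classes of longer microhomology rose. Microhomology of 2 to 3 bp rose in minus-orientation Sμ from 27.9% and 22.9% to 38.4% and 42.6% (edgeR adjusted p = 0.0072). It rose in plus-orientation Sγ1 from 10.3% and 18.8% to 43.4% and 30.0% (edgeR adjusted p = 0.00906), and in minus-orientation Sγ1 from 22.3% and 32.4% to 44.5% and 36.6% (edgeR adjusted p = 0.0345). In minus-orientation Sγ1 the class of 4 bp or more also rose, from 15.2% and 10.2% to 22.6% and 22.8% (edgeR adjusted p = 0.035). Against the region in both orientations, only the plus-orientation Sγ1 class passed among these 4. The log2 change was then 0.26 for 2 to 3 bp in minus-orientation Sμ (edgeR adjusted p = 0.29), 0.28 for 2 to 3 bp in minus-orientation Sγ1 (edgeR adjusted p = 0.386) and 0.51 for 4 bp or more there (edgeR adjusted p = 0.23).

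The fit found almost no spread between libraries beyond counting error, a coefficient of variation of 0.0146%, so these p-values rest on counting error. DESeq2, which fitted a dispersion of 0.352, called 0 of the 28 classes and had 1 with an unadjusted p under 0.05. Without ATM RX/RX replicate 1, 3 classes passed in edgeR, and 5 without wild-type replicate 1.

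Of the classes that did not pass, those with the smallest p in each region are given next. Microhomology of 4 bp or more in minus-orientation Sμ stood at 10.1% and 15.2% in wild-type libraries and 18.9% and 17.6% in mutant ones (edgeR adjusted p = 0.0703). The 2 to 3 bp class of plus-orientation Sμ stood at 20.3% and 29.4% against 36.6% and 32.7%, and in minus-orientation Sμ, 1 bp at 20.7% and 20.0% against 17.9% and 15.3%. In plus-orientation Sγ1, 1 bp stood at 41.0% and 37.5% against 19.3% and 21.7% (edgeR adjusted p = 0.0592). Insertions in that class had an edgeR adjusted p of 0.138. Blunt joints in minus-orientation Sγ1, given above, had an edgeR adjusted p of 0.0606.

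In Sε the same listing names 3 classes with few mutant junctions. Minus-orientation microhomology of 4 bp or more stood at 7.31% and 6.42% in wild type and 12.0% and 16.7% in ATM RX/RX, and that of 2 to 3 bp at 26.2% and 25.7% against 60.0% and 21.4%. Plus-orientation microhomology of 1 bp was found in 9 and 0 joints of wild type against 1 and 2 of ATM RX/RX. The ATM RX/RX libraries disagreed in the 2 to 3 bp class, where the groups overlapped.

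Insertions made up 14.5% and 18.1% of minus-orientation Sμ joints in wild type and 14.0% and 13.1% in ATM RX/RX. In plus-orientation Sγ1 they were also lower in both mutant libraries, at 14.5% and 8.33% against 20.5% and 31.2% (8 of 39 and 5 of 16 joints), with means of 11.4% and 25.9% and a lowest Fisher adjusted p of 0.0668. In plus-orientation Sμ, minus-orientation Sγ1 and minus-orientation Sε the groups overlapped. No insertion class passed in edgeR, and Fisher's exact test separated 0 of 4 library pairs in each of the 5 classes.

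**Figure D2:**
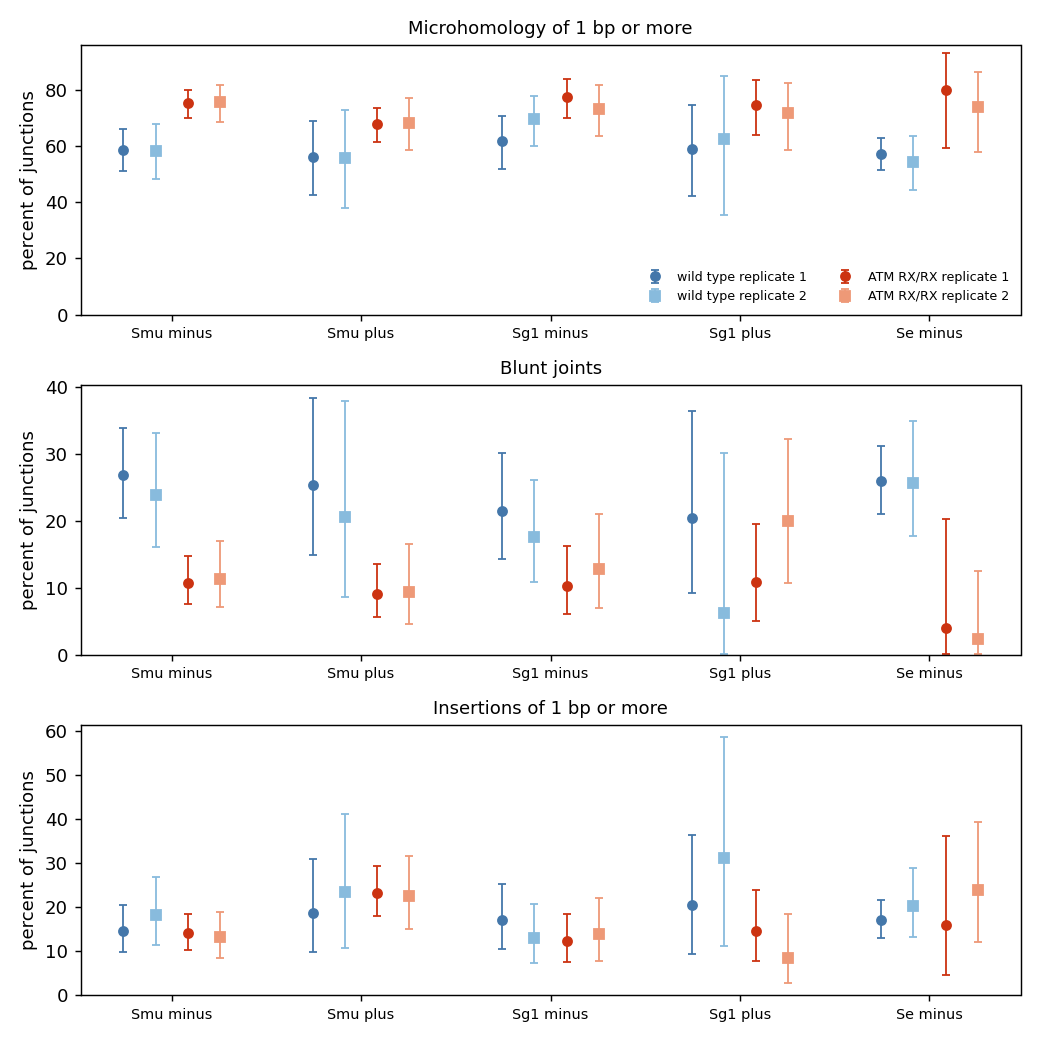
Percent of junctions (vertical axes) with microhomology, blunt joints or insertions in the 5 region and orientation classes (horizontal axes), 1 point per library with its exact 95% Clopper-Pearson interval, which covers counting error only. Microhomology is higher in both ATM RX/RX libraries in all 5 classes, and blunt joints are lower in 4, with overlap in plus-orientation Sγ1.

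Microhomology was also longer in most classes. Its mean length in minus-orientation Sμ was 2.30 and 2.41 bp in wild type and 2.77 and 2.86 bp in ATM RX/RX. In minus-orientation Sγ1 it was 2.83 and 2.19 bp against 3.29 and 3.12 bp, and in plus-orientation Sγ1 2.00 and 1.70 bp against 2.45 and 2.93 bp. Plus-orientation Sμ differed from these: 3.94 and 3.16 bp in wild type and 3.18 and 3.12 bp in ATM RX/RX, with overlap. With the mix of classes held at that of wild type, the length was 2.37 ± 0.110 bp against 2.81 ± 0.111 bp (SD, n = 2 each). Plus-orientation Sε was left out of that mean, since wild-type replicate 2 had no microhomology there.

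Microhomologies of 3 bp or more numbered 138 and 76 in wild type and 315 and 194 in ATM RX/RX. The most frequent over the 4 libraries was AGC, with 18 wild-type and 42 ATM RX/RX joints, followed by CAG (16 and 24), CTG (11 and 19) and AGCT (7 and 20). TGG (9 and 17) and AGCTG (7 and 19) shared the next place. These are counts, and the ATM RX/RX libraries held more microhomologies, so a higher count need not be a higher share. AGCT, the motif at which activation-induced deaminase often acts, was part of 24.0% and 19.5% of microhomologies of 4 bp or more in wild type and of 30.7% and 27.1% in ATM RX/RX. These shares did not overlap, but Fisher's exact test separated 0 of 4 library pairs. G and C made up 63.3% and 64.1% of microhomology bases in wild type and 61.7% and 60.3% in ATM RX/RX.

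Unlike the sequences named above, the microhomology GCTG had a lower count in ATM RX/RX. It was singled out after its counts were seen, so no test is given. It joined 9 and 9 junctions in wild type, at 18 different prey positions, and 1 and 0 in ATM RX/RX. In the bait shown above GCTG lies at bases 65 to 68, 71 to 74 and 74 to 77. Of the wild-type joints, 1 ended at base 68 and the rest at base 74 or 77.

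The third question was where in the bait the joints lay, measured by the last aligned bait base, which includes any microhomology. The median bait length was the same in both genotypes, at 57 and 58 bases in each, but the pattern along the bait was not. Bases 75 to 84 held the bait end in 12.6% and 12.6% of wild-type joints to Sμ, Sγ1 and Sε, and in 2.22% and 4.91% of those in ATM RX/RX. Bases past 93 held it in 4.23% and 4.28% against 8.74% and 11.0%. Both stretches were chosen after the values were seen, and the groups did not overlap in either.

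The gap at bases 75 to 84 was seen in separate classes of prey. In minus-orientation Sμ it was 11.2% and 12.4% in wild type against 3.58% and 3.41% in ATM RX/RX. In minus-orientation Sγ1 it was 10.7% and 13.0% against 1.29% and 5.94%, and in minus-orientation Sε 14.6% and 13.8% against 8.00% and 7.14%. In plus-orientation Sμ it was 5.08% and 11.8% against 0.862% and 2.80%. The groups overlapped in plus-orientation Sγ1 alone among these 5 classes, at 17.9% and 6.25% against 1.20% and 10.0%. Without the joints that end at these bases, the microhomology share of minus-orientation Sμ was 59.5% on average in wild type, against 75.6%.

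A test over all 16 windows of 5 bases, added after these data were seen, called 6 in edgeR, which is 37.5% of those tested, with 4 lower (25.0%) and 2 higher (12.5%) in ATM RX/RX. It took joints to Sμ, Sγ1 and Sε together, and their mix differed between the genotypes. The fitted spread between libraries was a coefficient of variation of 4.78%, so these p-values rest mostly on counting error. DESeq2 fitted a dispersion of 0.0967. The window from base 76 to 80 fell from 7.48% and 8.56% to 1.35% and 2.25% of joints (log2 -2.20 ± 0.34 SE, edgeR adjusted p = 5.7e-07). It remained past the threshold in 14 of 14 alternative settings. The adjoining windows from 71 to 75 (edgeR adjusted p = 0.0341) and from 81 to 85 (edgeR adjusted p = 0.0103) fell as well, as did that from 36 to 40 (edgeR adjusted p = 0.0341). The windows from 66 to 70 (1.65-fold, edgeR adjusted p = 0.0103) and from 101 to 105 (2.55-fold, edgeR adjusted p = 0.0347) rose. The bait holds AGCT at bases 64 to 67 and at bases 85 to 88. The window from 66 to 70 includes the end of the first. The second begins in the window from 81 to 85, which fell. Its other bases lie in the window from 86 to 90, which did not pass (3.24% and 4.81% against 5.42% and 4.50%, edgeR adjusted p = 0.234). DESeq2 called only the window from 76 to 80, as did edgeR without ATM RX/RX replicate 1. With the replicate number as a block, 3 windows passed, and 3 also without wild-type replicate 1 or ATM RX/RX replicate 2.

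**Figure D3:**
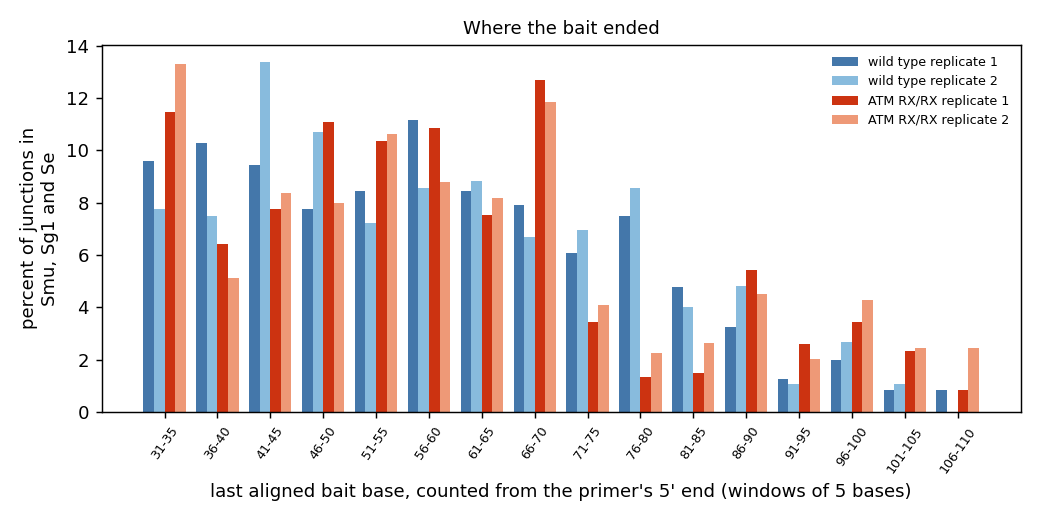
Percent of Sμ, Sγ1 and Sε junctions (vertical axis) by the last aligned bait base in windows of 5 bases (horizontal axis), 1 bar per library. The window from 76 to 80 holds 7.48% and 8.56% of joints in wild type and 1.35% and 2.25% in ATM RX/RX.

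The fourth question was where in the switch regions the prey ends lay. In the authors' build of chromosome 12 the windows are 114661501 to 114671500 for Sμ, 114558001 to 114588000 for Sγ1 and 114507001 to 114517000 for Sε. Transcription runs towards lower coordinates, so downstream positions have lower numbers, and the bait starts at 114669257. Minus-orientation Sμ joints reached farther downstream in ATM RX/RX, and plus-orientation Sμ joints lay more often upstream of the bait.

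The median distance of minus-orientation Sμ joints from the bait was 1334 and 1271 bp in wild type and 1332 and 1945 bp in ATM RX/RX, with overlap. The outer part of the distribution differed more than its middle. The upper quartile was 2650 and 2051 bp in wild type and 3670 and 3833 bp in ATM RX/RX. Joints over 5 kb downstream numbered 2 of 179 and 1 of 105 in wild type, or 1.12% and 0.952%, against 27 of 307 and 19 of 176, or 8.79% and 10.8%. That distance was chosen after the values were seen, so it is a description with no test.

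Of 63 bins of 500 bp, each within 1 region and orientation, 2 passed in edgeR, which is 3.17% of those tested, with 1 higher and 1 lower in ATM RX/RX (1.59% each), and both were in minus-orientation Sμ. The bin from 114663501 to 114664000, at 5257 to 5756 bp downstream of the bait, held 0 and 0 wild-type joints and 9 and 7 in ATM RX/RX (edgeR adjusted p = 0.00765). It met the minimum of 10 junctions with none from wild type, and the adjusted p in edgeR was 0.0128 with no such minimum. A count of 0 among 284 wild-type joints allows up to 1.06%, with the floor of 3 counts taken over the group. The 3.31% of ATM RX/RX joints is 3.14-fold that limit. This ratio leaves out the counting error of the ATM RX/RX value, so it is not a lower bound. The bin from 114667501 to 114668000, at 1257 to 1756 bp, fell from 21.2% and 19.0% to 9.77% and 7.39% (log2 -1.19 ± 0.31 SE, edgeR adjusted p = 0.00765).

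Calls of single bins rest on few joints. The fitted spread between libraries was a coefficient of variation of 5.53%, so the p-values in edgeR rest mostly on counting error. DESeq2 fitted a dispersion of 0.145. DESeq2 called 0 bins and had 4 with an unadjusted p under 0.05. In edgeR 0 bins passed when either wild-type library or ATM RX/RX replicate 2 was left out, and 1 passed when ATM RX/RX replicate 1 was.

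The Sμ bins next in order of p also lay downstream in the minus orientation. The bin from 114664001 to 114664500 held 1 and 2 wild-type joints and 15 and 8 in ATM RX/RX (edgeR adjusted p = 0.104). Joints in the bin from 114662501 to 114663000 numbered 0 and 0 against 4 and 4, and those in the bin from 114664501 to 114665000 numbered 6 and 0 against 19 and 11 (edgeR adjusted p = 0.128 for both).

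In Sγ1 and Sε no bin passed. The Sγ1 bins with the smallest p were all of the minus orientation. The bin from 114576001 to 114576500 held 8.04% and 5.56% of joints in wild type and 3.23% and 1.98% in ATM RX/RX. The bin from 114568001 to 114568500 held 9.82% and 7.41% against 5.16% and 2.97%, and that from 114578001 to 114578500 held 4.46% and 3.70% against 7.10% and 9.90%. Their edgeR adjusted p lay at 0.288, 0.326 and 0.341. In Sε the minus-orientation bin from 114512001 to 114512500 held 1 and 2 wild-type and 2 and 1 ATM RX/RX joints (edgeR adjusted p = 0.288). In the bin from 114514001 to 114514500 lay 72 and 28 against 3 and 7 in the minus orientation and 9 and 0 against 0 and 2 in the plus orientation (edgeR adjusted p = 0.493 for both).

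The downstream ends of the other windows showed a like picture for minus-orientation joints. Over 22 kb into the Sγ1 window lay 0 of 112 and 1 of 108 wild-type joints, against 9 of 155 and 5 of 101 mutant ones. As shares this is 0% and 0.926% against 5.81% and 4.95%, and the count of 0 allows a share of up to 2.68%. Over 4 kb into the Sε window lay 9 of 301 and 3 of 109 against 4 of 25 and 5 of 42, or 2.99% and 2.75% against 16.0% and 11.9%. The groups did not overlap in either region. Both distances were chosen after the values were seen, and no test is given. The median position did not separate the groups in Sγ1, at 14589 and 15837 bp into the window against 14849 and 14482 bp. In Sε it was 2611 and 2547 bp against 2812 and 2962.5 bp.

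Plus-orientation Sμ joints moved the other way along the locus. Those upstream of the bait made up 8.47% and 20.6% in wild type (5 of 59 and 7 of 34) and 35.3% and 29.0% in ATM RX/RX (82 of 232 and 31 of 107). The wild-type libraries differed widely and rest on few joints, and Fisher's exact test separated 2 of 4 library pairs (adjusted p from 0.00023 to 0.495). The median distance from the bait was 962 and 846 bp in wild type and 510.5 and 681 bp in ATM RX/RX. Over 5 kb downstream of the bait lay 1 plus-orientation joint in each of the 4 libraries. Within the first 50 prey bases AGCT was found in 67.8% and 58.8% of wild-type reads and in 41.8% and 45.8% of ATM RX/RX reads of this class. In minus-orientation Sμ reads it was found in 78.8% and 73.3% against 66.4% and 68.2%. AGCT reads the same on both strands. The groups did not overlap in either class. Fisher's exact test separated 2 of 4 pairs in the plus orientation (adjusted p from 0.00226 to 0.346). In the minus orientation it separated 1 of 4 (adjusted p from 0.0123 to 0.527). The AGCT measure was added after the data were seen, so these p-values are descriptive only. Preys with fewer than 50 aligned bases were searched over those bases only. Such preys numbered 138 and 65 in the whole wild-type libraries and 157 and 82 in the ATM RX/RX ones. Outside Sμ, AGCT was also less frequent in both mutant libraries in minus-orientation Sγ1. The groups overlapped in plus-orientation Sγ1 and in minus-orientation Sε.

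**Figure D4:**
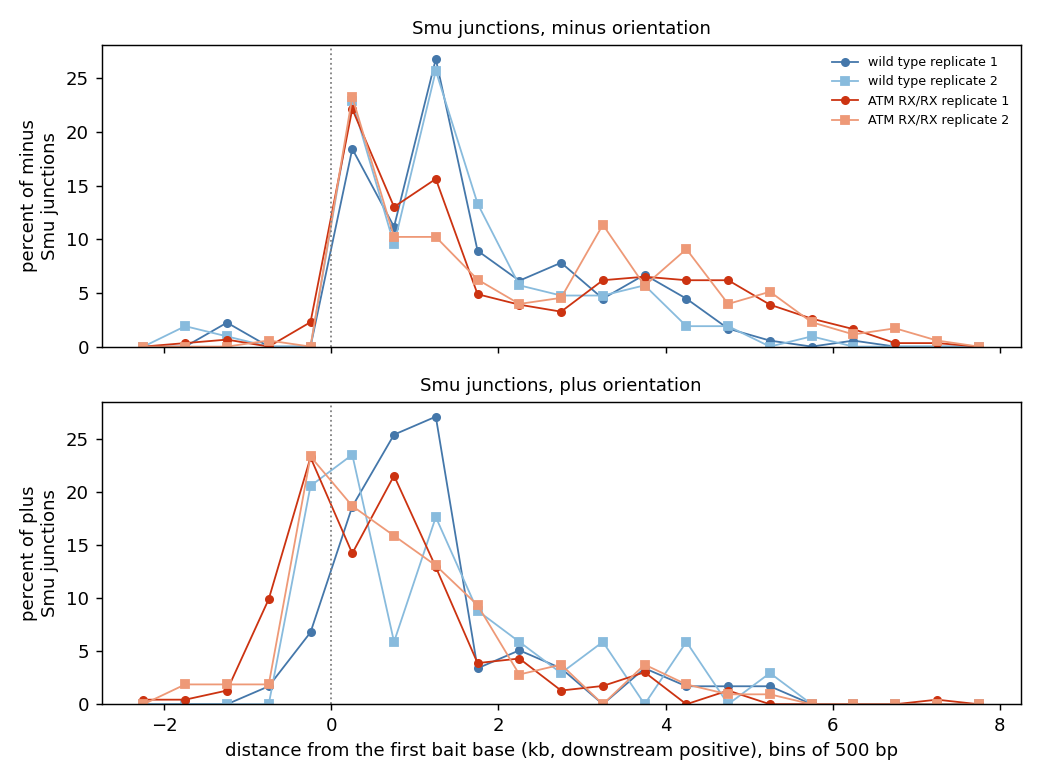
Percent of Sμ junctions of each orientation (vertical axes) in bins of 500 bp by distance from the first bait base (horizontal axis, downstream positive), 1 line per library, with the bait at the dotted line. In the minus orientation both ATM RX/RX lines lie below wild type near 1.25 kb, and joints over 5 kb make up 8.79% and 10.8% in ATM RX/RX against 1.12% and 0.952% in wild type.

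**Figure D5:**
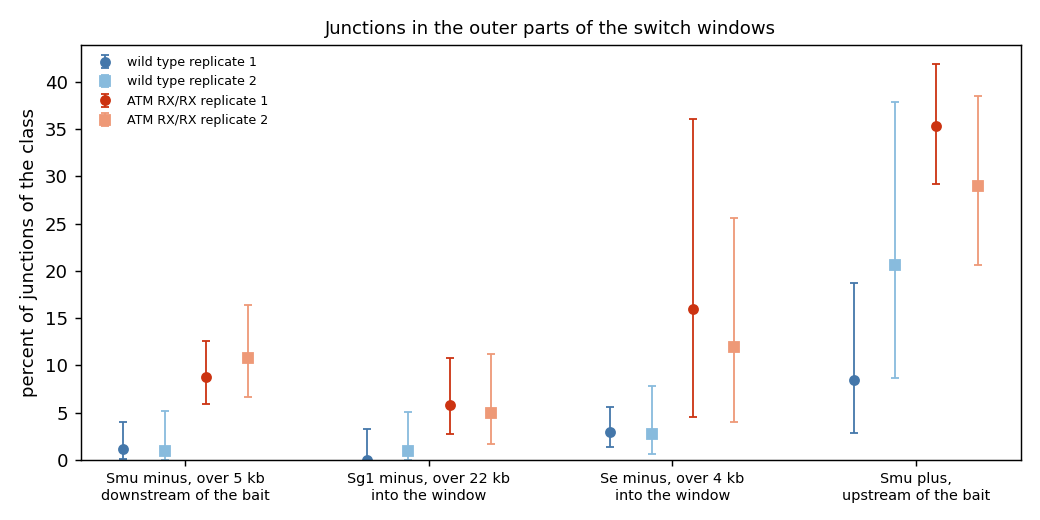
Percent of the junctions of each class (vertical axis) that lie in an outer part of its window (horizontal axis), 1 point per library with its exact 95% Clopper-Pearson interval for counting error. Both ATM RX/RX libraries lie above both wild-type libraries in all 4 cases, and the intervals of the Sε joints and of the plus-orientation Sμ joints are wide.

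Junctions elsewhere in IgH, which the authors list apart, are given by 3 stretches. Between the Sμ and Sγ1 windows there were 1 and 3 wild-type junctions, or 0.139% and 0.767% of those listed in IgH, against 15 and 15, or 1.75% and 2.90%. Upstream of Sμ there were 3 and 6 (0.416% and 1.53%) against 18 and 8 (2.11% and 1.55%). Downstream of Sγ1 there were 8 and 8 (1.11% and 2.05%) against 10 and 5 (1.17% and 0.967%). As shares the groups overlapped in the last stretch. Upstream of Sμ they did not overlap, but wild-type replicate 2 (1.53%) and ATM RX/RX replicate 2 (1.55%) were nearly equal. Within the first stretch, the 10 kb from 114650001 to 114660000, next to the downstream end of Sμ, held 0 and 0 wild-type and 5 and 5 ATM RX/RX junctions, all of the minus orientation. This window reached the minimum of 10 junctions for naming through ATM RX/RX alone, so its contrast is partly set by that choice. Downstream of Sγ1, the 10 kb from 114540001 to 114550000 held 4 and 5 minus-orientation junctions in wild type and 2 and 2 in ATM RX/RX, with 1 more of the plus orientation in ATM RX/RX replicate 1. The 10 kb from 114670001 to 114680000, upstream of Sμ, held 2 and 3 minus-orientation junctions in wild type and 3 and 1 in ATM RX/RX, with 1 of the plus orientation in wild-type replicate 2 and 2 in ATM RX/RX replicate 1. As classes, other IgH joints did not pass in edgeR against the library total, with adjusted p of 0.0705 for the plus and 0.408 for the minus orientation.

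Structure and position were also set side by side within Sμ. Higher microhomology in ATM RX/RX was present in near and far minus-orientation joints. Up to 500 bp from the bait the share with microhomology was 66.7% and 58.3% in wild type and 78.3% and 73.2% in ATM RX/RX. From 500 to 2000 bp it was 57.1% and 60.8% against 71.6% and 68.1%, and from 2000 to 4000 bp 26 of 45 and 11 of 22 joints against 70.5% and 77.8%. The groups did not overlap in any of these 3 zones. Over 4000 bp it was 84.6% and 83.3% of 65 and 42 joints in ATM RX/RX, and 9 of 13 and 2 of 5 joints in wild type.

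In plus-orientation Sμ the difference depended on the zone. From 500 to 2000 bp downstream the share with microhomology was 42.4% and 45.5% in wild type and 67.4% and 75.6% in ATM RX/RX. Up to 500 bp downstream it was 11 of 11 and 5 of 8 joints in wild type against 63.6% and 70.0%. Upstream of the bait it was 4 of 5 and 6 of 7 joints in wild type against 70.7% and 54.8%. Upstream of the bait both wild-type libraries thus lay above both mutant ones, and up to 500 bp the groups overlapped, on few wild-type joints. Without joints near or upstream of the bait, the difference in microhomology share was 28.9 percentage points, against 12.0 with them. It was 19.4 points without junctions that match another library in coordinate, orientation, bait position and gap. The origin of such matches was not tested.

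Outside IgH the 2 remaining classes did not pass. Junctions on chromosome 12 outside IgH made up 1.33% and 2.17% of all junctions in wild type and 4.22% and 3.14% in ATM RX/RX (edgeR adjusted p = 0.0705). Junctions on other chromosomes made up 18.9% and 20.7% against 26.1% and 22.5% (edgeR adjusted p = 0.365).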

How the data were processed

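DNA junctions from the Sμ bait were mapped in 2 wild-type, 2 ATM RX/RX and 2 ATM KO libraries. The submitters' processing notes name Bowtie2 and mm9, with no version of Bowtie2 in the sources used here. As the design text states, the IgH switch segment of mm9 was replaced by 129 sequence, so IgH coordinates belong to that build and were not converted. The deposited values are per-junction coordinates, orientations and alignment ends, and the deposited counts are the authors' totals of junctions per region. Empty lines of the lists (4 in each ATM RX/RX library, 0 in wild type) were not analysed here.

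Positions of the alignments on the read gave the structure. The gap is the prey's first aligned read base minus the bait's last, minus 1: above 0 is an insertion, 0 a blunt joint and below 0 microhomology. The quasi-likelihood F test of edgeR 4.0.16 (R 4.3.3) was run on counts of all 6 libraries, by genotype, with 1 common dispersion per family. The offset was the library total for region classes, the library's joints of that region and orientation for structure classes and bins, and all switch joints for bait windows. Features needed at least 10 junctions, and p-values were adjusted by Benjamini-Hochberg within each family at 0.05. The step was run on simulated counts drawn at the fitted spread or a small floor. That run therefore does not cover a larger spread between libraries. Shares were compared with two-sided exact permutation tests and, between single libraries, Fisher's exact tests adjusted over 172 tests (SciPy 1.17.1). Reads carry no molecular identifiers and may repeat a molecule, so intervals, and the limit of 3 counts used for a count of 0, cover counting error only. Of IgH junctions, 2.56% to 6.19% per library matched 1 in another library. Alternatives included DESeq2 1.42.0, TMM factors, other offsets and filters, and each library left out.

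Named classes and bins are those past the threshold and, of the rest, the 3 with the smallest p in each region. Microhomology sequences are the 5 most frequent of 3 bp or more (6 with a tie), other IgH windows those with at least 10 junctions, and reads the first in list order of their kind. The members, classes and measures were chosen with earlier results of these data known.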

Additional observations from a re-analysis of the deposited data

How the results depend on the processing

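Counts of calls depended on the tool and on single libraries. For region and orientation classes (2 called), TMM factors gave 1, a fit of the 4 libraries alone 1 and the IgH total as offset 4, and with each library left out in turn the count ranged from 0 to 3. For structure classes (8 called), DESeq2 gave 0, TMM factors 14 (4 of the 8 among them) and offsets by region without orientation 6 (also 4 of the 8), and leaving out a library gave 3 to 8. For bins (2 called), DESeq2 gave 0, TMM factors 7, offsets by region without orientation 4 and a width of 1000 bp 1, and leaving out a library gave 0 to 2. For bait windows (6 called), DESeq2 gave 1 and leaving out a library 1 to 6. TMM factors replace the offsets by region and orientation, so they compare a structure class with the whole library: blunt plus-orientation Sμ joints then turned to a log2 change of 0.22.

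Of 24 shares, lengths and positions under 151 alternatives, 1 reversed its direction: the difference in median position of minus-orientation Sγ1 joints was -547.5 bp, and with a library left out it ranged from -1171.5 bp (without wild-type replicate 1) to 76.5 bp (without wild-type replicate 2). The share of plus-orientation Sμ joints upstream of the bait has no value without joints near or upstream of the bait, since none are left. The median bait length was equal in both genotypes, so it had no direction to reverse. Its difference ranged from -0.5 to 0.5 bases with a library left out.

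The groups share replicate numbers, but the labels tie nothing to a number and there are only 2. Deviations of same-numbered libraries over 28 structure classes correlated at -0.567 between wild type and ATM RX/RX, -0.254 between wild type and ATM KO and -0.419 between ATM RX/RX and ATM KO. With a replicate block, 2 region classes, 8 structure classes, 2 bins and 3 bait windows passed. With the numbers of ATM RX/RX exchanged, in the 4 libraries alone, the counts were 3, 7, 2 and 9.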
